A study of Homo sapiens with 2 samples.

Results

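The genes described here are 35 interferon-induced genes that lie outside the IFIT, OAS, MX, ISG15, PARP, RNA sensor and major histocompatibility groups. They were taken by name, and each was read on the probe set with its single gene symbol that was brightest over both arrays. Of the 35 genes, 34 had such a probe set, out of 19775 genes on the array, and together they had 65 probe sets of 54675. TDRD7 was not analysed here. RNA came from RKO, an established line of human colon cancer cells, after infection with a retrovirus carrying a hairpin against BCLAF1-L, the long form of a nuclear protein linked to RNA processing and transcription (sh-BCLAF1-L), or a hairpin against luciferase (sh-Luci). Both cultures were selected with puromycin at 2 µg/ml for 72 to 96 h, per the labels, and no interferon treatment is described for either. Each group had 1 array, so the values below are single measurements with no replicate check, and no p-value was computed. With 1 hairpin against BCLAF1, an effect of the loss of BCLAF1 and an unrelated effect of that hairpin cannot be told apart.

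Type I and type III interferons act through paired receptors and the kinases JAK1 and TYK2 on a transcription factor complex with IRF9, which binds a DNA element called the interferon-stimulated response element. Interferon gamma acts through JAK1 and JAK2, and its target genes carry an element called the gamma-activated site. The genes induced in this way block virus entry, degrade or edit viral RNA, stop translation or sense foreign nucleic acid, and many are also transcribed at a low level in epithelial cells without added interferon.

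The promoters of 5 of these genes are shown because they carry the response element at different places and belong to genes with different outcomes on the arrays. They run from 250 bases before the start of transcription to the last base before it, 5′ to 3′ in the direction of transcription, from RefSeq on GRCh38.p14. Capitals mark the core of the element, which is GAAA, any 2 bases and GAAA, on either strand. IFI6, IFI44 and IFITM1 were lower in sh-BCLAF1-L cells, while BST2 and ISG20 differed little.
IFI6 (chr1:27672193-27672442, minus strand): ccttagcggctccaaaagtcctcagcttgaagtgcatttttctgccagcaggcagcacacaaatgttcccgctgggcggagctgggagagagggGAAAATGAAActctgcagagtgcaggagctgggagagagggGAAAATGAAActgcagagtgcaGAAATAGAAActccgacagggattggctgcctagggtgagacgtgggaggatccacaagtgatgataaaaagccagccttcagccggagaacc
IFI44 (chr1:78649539-78649788, plus strand): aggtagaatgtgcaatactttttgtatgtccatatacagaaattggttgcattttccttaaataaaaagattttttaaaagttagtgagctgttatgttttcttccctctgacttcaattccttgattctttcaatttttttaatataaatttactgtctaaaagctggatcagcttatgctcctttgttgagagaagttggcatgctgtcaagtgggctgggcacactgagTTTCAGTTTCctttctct
IFITM1 (chr11:313790-314039, plus strand): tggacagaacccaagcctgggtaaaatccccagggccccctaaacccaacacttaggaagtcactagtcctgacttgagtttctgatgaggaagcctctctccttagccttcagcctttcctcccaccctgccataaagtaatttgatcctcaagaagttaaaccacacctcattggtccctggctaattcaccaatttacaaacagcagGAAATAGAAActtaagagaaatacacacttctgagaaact
BST2 (chr19:17405631-17405880, minus strand): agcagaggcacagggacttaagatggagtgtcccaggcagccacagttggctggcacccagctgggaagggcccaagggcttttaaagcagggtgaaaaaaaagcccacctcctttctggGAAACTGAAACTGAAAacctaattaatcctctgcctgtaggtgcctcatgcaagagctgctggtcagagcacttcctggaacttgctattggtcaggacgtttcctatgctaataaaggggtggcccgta
ISG20 (chr15:88638766-88639015, plus strand): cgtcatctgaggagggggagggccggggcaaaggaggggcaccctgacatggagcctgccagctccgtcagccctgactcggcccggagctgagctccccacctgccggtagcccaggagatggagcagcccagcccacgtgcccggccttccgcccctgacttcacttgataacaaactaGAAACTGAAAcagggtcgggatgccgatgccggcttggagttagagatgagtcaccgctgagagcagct
The IFI6 window held 3 cores, which began 156, 115 and 93 bases before the start. IFI44 held 1 core on the reverse strand, 18 bases before the start. The core of IFITM1 began 40 bases before the start and that of ISG20 69 bases before it. BST2 held 2 cores that overlap each other, at 130 and 124 bases, and the first of them overlaps a match to the core of the gamma-activated site, which is TTC, any 3 bases and GAA.

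Promoter windows were found for 32 of the 35 genes, with 44 windows because some genes have several starts. IFITM2, LAMP3 and GBP2 had none in the table. The response element core was in 22 of the 44 windows, or 50%, against 3.02% of all 35116 windows. The gamma-activated site core was in 11 of the 44, or 25%, against 6.57% of all windows. Counted by gene, 19 of the 32 (59.4%) held the response element core, against 3.71% of all 27305 genes with a window. The gamma site core was held by 10 of the 32 (31.2%), against 8.09% of all these genes. Both cores were held by 5 of the 32 and neither by 8. The core sequences can overlap, as in BST2 and IFI27. A match is a run of letters in the window, and binding was not measured.

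The targeted gene was lower on each of its 6 probe sets. The brightest BCLAF1 probe set read 945 in sh-BCLAF1-L cells, against 2505 in sh-Luci cells, which left 37.7% of the control value, and the other 5 left between 33.7% and 70.0% of it. Bacterial biotin spike-ins, which follow hybridisation, were higher on the sh-BCLAF1-L array in all 18 probe sets, with a median log2 difference of 0.20. The 27 poly-A control probe sets had a median of -0.035 but ranged from -0.48 to 0.19, so single controls differed by as much as many genes below. Of 10 colon epithelial markers, 7 reached the filter used below, a mean intensity of 63.7. Among them were EPCAM (472 in sh-BCLAF1-L cells and 477 in sh-Luci cells) and VIL1, which only just reached it at a mean of 64.2. CDH1, KRT19 and KRT20 were below it. The blood markers PTPRC, CD14 and LYZ were below the filter and CD3E was above it. Also above it were 4 of 6 fibroblast markers and 2 of 4 endothelial markers, so passing the filter does not tell cell types apart. The summed intensities of the blood markers were 224 in sh-BCLAF1-L cells and 235 in sh-Luci cells, those of the fibroblast markers 744 and 674, those of the endothelial markers 346 and 331, and those of the epithelial markers 1737 and 2041. At least 20% lower were 2 of the 7 epithelial markers, the keratin KRT18 (674 in sh-BCLAF1-L cells and 979 in sh-Luci cells) and the galectin LGALS4 (143 and 186), and the other 5 differed by -0.016 to 0.20 on the log2 scale. The part of these shifts in the differences below was not tested.

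Most of the interferon-induced genes were lower in sh-BCLAF1-L cells, by modest amounts. A gene was kept when the mean of both arrays was at or above an intensity of 63.7, the 40th percentile over the array. This mean was taken on the log2 scale after adding 1 and turned back into an intensity. The filter was reached by 31 of the 34 genes. Of these 31, 28 were lower and 3 were higher, while 45% of all 14507 genes that reached it were lower. The median log2 difference, taken as sh-BCLAF1-L minus sh-Luci after adding 1 to each intensity, was -0.25 over the 31 genes, a ratio of 0.843 to sh-Luci, and 0.019 over all genes. The middle of the 31 genes lay between quartiles of -0.39 and -0.12.

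At least 20% lower, which is a log2 difference of -0.32 or beyond, were 9 of the 31 genes, or 29%, against 2.21% of all genes. None was at least 25% higher, against 4.16% of all genes. At least 1.5-fold lower were 2 genes, IFI44 and IFI6, against 0.2% of all genes, and none was 1.5-fold higher, against 0.434%. None was 2-fold lower, against 0.00689% of all genes, which is BCLAF1 alone. The 9 genes were IFI44, IFI6, RSAD2, LAMP3, IFI27, IFITM1, PLSCR1, LAP3 and NMI. NMI lay just inside this threshold at 79.6% of its sh-Luci value, and SAMD9, DDX60 and DDX60L just outside it at 80.2%, 80.5% and 80.8%. Probe sets of 1 gene scattered around each other by 0.16 (SD, log2 units), over 6752 genes with several of them, and this SD does not cover the spread between cultures or arrays. In bulk RNA, fewer cells that express a gene and less RNA per cell cannot be told apart.

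**Figure D1:**
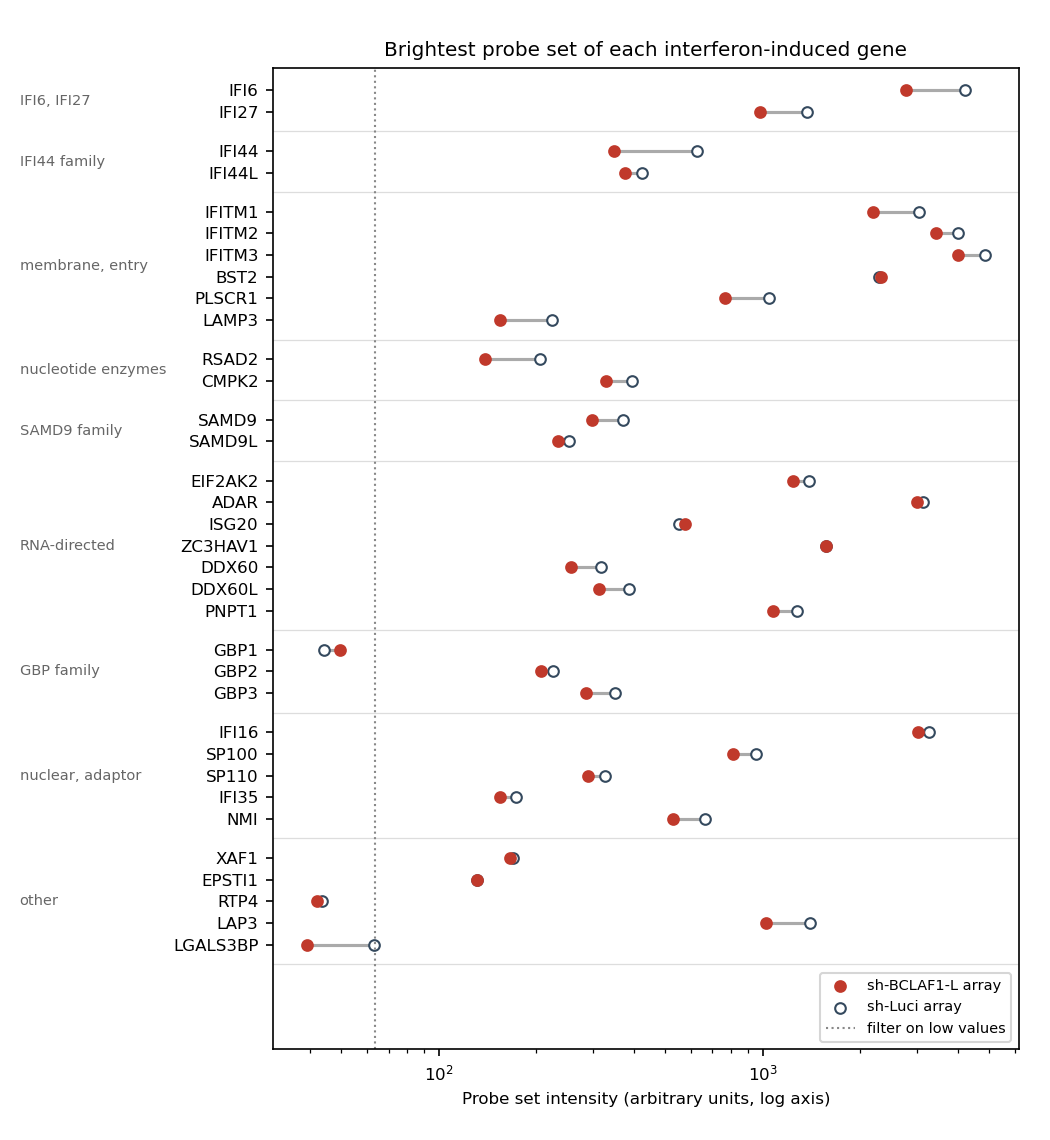
Intensity of the brightest probe set of each of the 34 genes on a log axis, in rows by role, with filled points for the sh-BCLAF1-L array and open points for the sh-Luci array. The dotted line is the filter at 63.7, below which GBP1, RTP4 and LGALS3BP lie, and the filled point is left of the open one in most rows.

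IFI6 and IFI27, which encode small hydrophobic proteins of the endoplasmic reticulum and mitochondria, were both lower. IFI6 read 2776 in sh-BCLAF1-L cells, against 4217 in sh-Luci cells, which is 1.52-fold lower. Its log2 difference of -0.60 ranked 28 from the lowest among 14507 genes. IFI27 read 980 in sh-BCLAF1-L cells, against 1367 in sh-Luci cells, a difference of -0.48. Each had 1 probe set, and both promoters carry several cores of the response element.

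IFI44 had the largest difference on a brightest probe set, but its probe sets did not go together. IFI44 read 347 in sh-BCLAF1-L cells, against 629 in sh-Luci cells, which is 1.81-fold lower and ranked 7 from the lowest. Its other probe set read 197 in sh-BCLAF1-L cells and 196 in sh-Luci cells, a difference of 0.0088. The related IFI44L, its direct neighbour on chromosome 1, read 377 in sh-BCLAF1-L cells and 425 in sh-Luci cells, a difference of -0.17. The statement that IFI44 was lower therefore rests on 1 of its 2 probe sets.

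Among genes of the cell membrane and virus entry, 5 of 6 were lower, 3 of them by at least 20%. The IFITM proteins hinder the fusion of enveloped viruses with cell membranes. IFITM1, which acts mainly at the cell surface, read 2196 in sh-BCLAF1-L cells, against 3041 in sh-Luci cells, a difference of -0.47. IFITM2 and IFITM3 act mainly in endosomes. IFITM2 read 3429 in sh-BCLAF1-L cells and 4003 in sh-Luci cells, a difference of -0.22. IFITM3 read 4027 in sh-BCLAF1-L cells and 4849 in sh-Luci cells, a difference of -0.27. The sequences of these genes are much alike, and the only probe set of each, that of IFITM1 included, is of the _s_at or _x_at type that can match several transcripts, so the values cannot be fully assigned to 1 gene each. A probe set annotated to both IFITM1 and IFITM2, not used for either gene, read 2309 in sh-BCLAF1-L cells and 2943 in sh-Luci cells, a difference of -0.35, which lies between those of IFITM1 and IFITM2.

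BST2 (tetherin), which holds budding virus particles at the cell surface, stood beside these genes with no such difference. It read 2320 in sh-BCLAF1-L cells and 2288 in sh-Luci cells, a difference of 0.020 on its only probe set. Its promoter holds the overlapping cores shown above. PLSCR1, a phospholipid scramblase, read 764 in sh-BCLAF1-L cells, against 1047 in sh-Luci cells, a difference of -0.45, and its second probe set differed by -0.36. The remaining PLSCR1 probe set lay far below the filter, at 15.4 in sh-BCLAF1-L cells and 9.28 in sh-Luci cells. LAMP3, a lysosomal membrane glycoprotein, read 154 in sh-BCLAF1-L cells, against 224 in sh-Luci cells, a difference of -0.54 that ranked 51 from the lowest.

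RSAD2 (viperin), a radical SAM enzyme that makes a chain-terminating CTP analogue, was lower on both of its probe sets. RSAD2 read 139 in sh-BCLAF1-L cells, against 205 in sh-Luci cells, a difference of -0.56. Its other probe set read 101 in sh-BCLAF1-L cells, against 201 in sh-Luci cells, and differed by -0.98, which was the lowest difference of any of the 65 probe sets. The endothelial marker VWF read at a similar level to RSAD2 and LAMP3, at 194 in sh-BCLAF1-L cells and 177 in sh-Luci cells. How much of the signal of RSAD2 and LAMP3 is specific was not tested. CMPK2, a nucleoside monophosphate kinase of mitochondria and the direct neighbour of RSAD2 on chromosome 2, read 328 in sh-BCLAF1-L cells and 394 in sh-Luci cells, a difference of -0.26. The related SAMD9 and SAMD9L, neighbours on chromosome 7 whose proteins restrict poxviruses and can inhibit protein synthesis, differed by -0.32 and -0.11. SAMD9 read 296 in sh-BCLAF1-L cells and 369 in sh-Luci cells, and its second probe set differed by -0.29. SAMD9L read 234 in sh-BCLAF1-L cells and 252 in sh-Luci cells, with a second probe set at -0.20.

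None of the 7 genes that act on RNA was 20% lower or 25% higher. In this group, 5 were lower and 2 were higher, with a median of -0.17. The largest differences were those of DDX60 and DDX60L, a neighbouring pair of helicase genes on chromosome 4. Both were read on an _s_at probe set, a type that can match several transcripts. DDX60 read 256 in sh-BCLAF1-L cells and 318 in sh-Luci cells. DDX60L read 312 in sh-BCLAF1-L cells and 386 in sh-Luci cells, and its other probe set, below the filter, differed by 0.23, so that the median of both was -0.040. PNPT1, the mitochondrial polynucleotide phosphorylase, read 1080 in sh-BCLAF1-L cells and 1280.4 in sh-Luci cells, a difference of -0.25.

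EIF2AK2 (PKR), the kinase that stops translation on binding double-stranded RNA, read 1240 in sh-BCLAF1-L cells and 1394 in sh-Luci cells, a difference of -0.17, with -0.12 and 0.029 on its other probe sets. ADAR, which edits adenosine to inosine in double-stranded RNA, read 3000 in sh-BCLAF1-L cells and 3127 in sh-Luci cells, a difference of -0.060. These differences are near or within the SD of 0.16 between probe sets of a gene. ZC3HAV1 (ZAP), which binds CpG-rich viral RNA, read 1573 in sh-BCLAF1-L cells and 1571 in sh-Luci cells on its brightest probe set, a difference of 0.0016. Its other probe sets differed by -0.36 and -0.13, so the direction of ZC3HAV1 depends on the probe set. ISG20, an RNA exonuclease, read 577 in sh-BCLAF1-L cells and 552 in sh-Luci cells, a difference of 0.063, and its other probe set differed by -0.058.

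The guanylate-binding proteins, large GTPases that gather on membranes around intracellular pathogens, are known above all as targets of interferon gamma. GBP1 was below the filter on all 4 of its probe sets, and the brightest read 49.7 in sh-BCLAF1-L cells and 44.2 in sh-Luci cells. GBP2 read 207 in sh-BCLAF1-L cells and 225 in sh-Luci cells, a difference of -0.12. GBP3 read 284 in sh-BCLAF1-L cells and 350.2 in sh-Luci cells, a difference of -0.30. The gene GBP1 lies between GBP2 and GBP3 on chromosome 1, and neither of the 2 genes above the filter was 20% lower.

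All 5 genes of nuclear and adaptor proteins were lower, 4 of them by less than 20%. IFI16, a nuclear sensor of DNA, had the most uniform probe sets, at -0.12, -0.12 and -0.11. Its brightest probe set read 3010 in sh-BCLAF1-L cells and 3268 in sh-Luci cells. SP100 and SP110 encode proteins of nuclear bodies. SP100 read 810 in sh-BCLAF1-L cells and 955 in sh-Luci cells, a difference of -0.24, and 3 of its 5 probe sets above the filter were lower, over a range of -0.34 to 0.12. SP110 read 288 in sh-BCLAF1-L cells and 326 in sh-Luci cells, and all 5 of its probe sets were lower, between -0.48 and -0.044. IFI35 and NMI encode proteins that bind each other. IFI35 read 154 in sh-BCLAF1-L cells and 173 in sh-Luci cells, a difference of -0.17, and NMI read 527 in sh-BCLAF1-L cells and 662 in sh-Luci cells.

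The remaining genes were mixed in brightness. LAP3, a leucine aminopeptidase, read 1025 in sh-BCLAF1-L cells, against 1401 in sh-Luci cells, a difference of -0.45 that ranked 102 from the lowest. XAF1, a partner of the caspase inhibitor XIAP, read 166 in sh-BCLAF1-L cells and 170 in sh-Luci cells, with differences of -0.035, 0.093 and -0.24 on its 3 probe sets. EPSTI1 read 131 in sh-BCLAF1-L cells and 132 in sh-Luci cells. These last genes show no difference beyond the scatter of probe sets on their brightest one. RTP4, a chaperone of receptor transport, read 42.0 in sh-BCLAF1-L cells and 43.6 in sh-Luci cells, below the filter. LGALS3BP, a secreted glycoprotein that binds galectins, read 39.2 in sh-BCLAF1-L cells and 63.0 in sh-Luci cells, so its difference of -0.67 comes from intensities below the filter and does not count among the 31 genes.

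**Figure D2:**
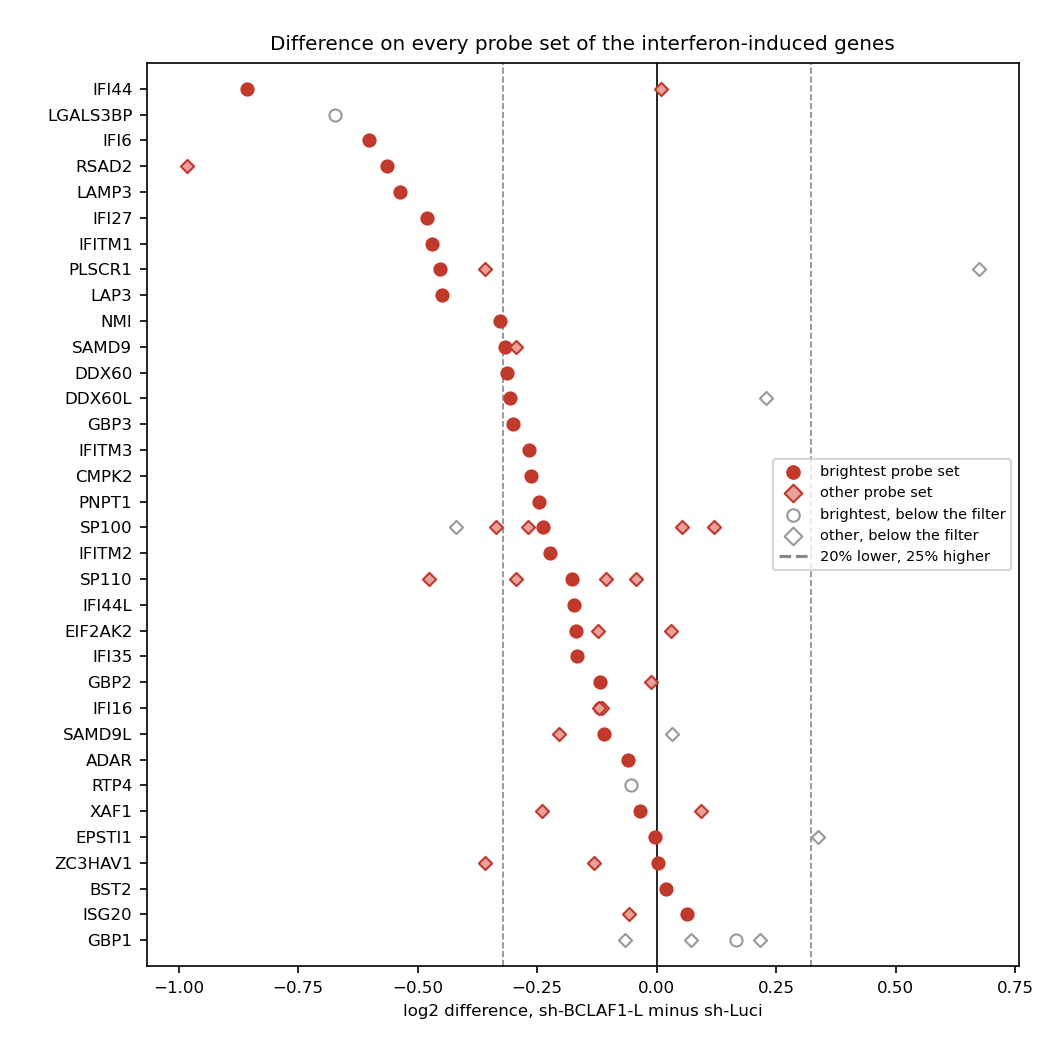
Log2 difference (sh-BCLAF1-L minus sh-Luci) on all 65 probe sets of the 34 genes, in rows from the lowest to the highest brightest probe set; circles are the brightest probe set, diamonds the others, and open grey symbols lie below the filter. Of the 9 genes left of the 20% line, only IFI44, RSAD2 and PLSCR1 have a further probe set above the filter. Its gap to the circle is 0.87, 0.42 and 0.094, and the other genes there can show no gap.

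Probe sets of the same gene gave a partial check within each array. Of the 54 probe sets above the filter, 46 were lower, against 46.1% lower among all probe sets above the filter that have 1 gene symbol. Several probe sets above the filter were available for 13 genes. All were lower in 7 of these genes, namely GBP2, IFI16, PLSCR1, RSAD2, SAMD9, SAMD9L and SP110. The probe sets of EIF2AK2, IFI44, ISG20, SP100, XAF1 and ZC3HAV1 went both ways. The other 18 genes rested on 1 probe set, among them IFI6, IFI27, IFITM1, LAMP3, LAP3, NMI and BST2.

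The differences were not limited to dim genes. Of 12 genes with a mean intensity of at least 1000, 10 were lower and 4 of these by at least 20%, with a median of -0.23. Of 11 genes between 300 and 1000, 10 were lower and 3 of these by at least 20%, with a median of -0.30. All 8 genes between the filter and 300 were lower and 2 by at least 20%, with a median of -0.14.

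**Figure D3:**
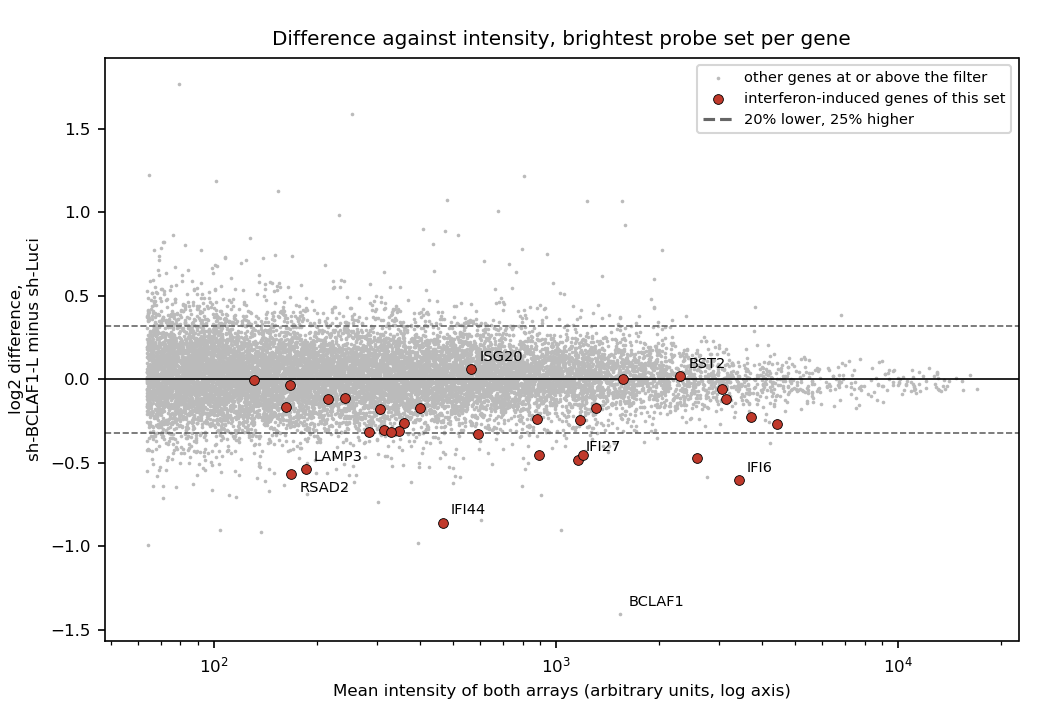
Log2 difference (sh-BCLAF1-L minus sh-Luci) against the mean intensity of both arrays on a log axis, 1 point per gene above the filter, with the 31 interferon-induced genes in red and dashed lines at 20% lower and 25% higher. The 9 red points under the lower line span intensities from RSAD2 to IFI6, and no red point lies over the upper line.

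Neighbouring genes above the filter were all lower, in most pairs by different amounts. With 28 of the 31 genes lower, most pairs of them would be lower together whether or not they were neighbours. Each gene was read on its brightest probe set. IFITM1 lies between IFITM2 and IFITM3 on chromosome 11 and differed by -0.47, against -0.22 and -0.27 for its neighbours. DDX60 and DDX60L differed by -0.31 each, both on _s_at probe sets, so these values cannot be fully assigned to 1 gene each. The pairs of RSAD2 and CMPK2, IFI44 and IFI44L, and SAMD9 and SAMD9L each held 1 gene with a larger difference, which was RSAD2, IFI44 and SAMD9. In the RSAD2 and SAMD9 pairs, the response element core was found before at least 1 start of that gene and not before CMPK2 or SAMD9L, whereas both IFI44 and IFI44L carry it. On second probe sets, SAMD9 and SAMD9L differed by -0.29 and -0.20, RSAD2 by -0.98 and IFI44 by 0.0088. With IFI44L at -0.17, the order within the IFI44 pair depends on the probe set.

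On their brightest probe sets, the genes at least 20% lower were genes with the response element core wherever a promoter was available. Of the 9 genes, 8 had a promoter window and 8 of these held the core. Among genes above the filter, 16 held it, of which 14 were lower and 8 by at least 20%, with a median of -0.32 and a range from -0.86 to 0.063. Another 12 had a window without it, of which 11 were lower and none by 20%, with a median of -0.17 and a range from -0.30 to 0.0016. BST2, ISG20 and EPSTI1 held the core and differed by 0.020, 0.063 and -0.0026. Without _s_at and _x_at probe sets, which can match several transcripts, 5 of the 6 genes at least 20% lower had a promoter window, of which 4 held the core. SP100, which has no core in its windows, was then among them at -0.34, and IFI44 was not. In the other 8 settings, which reuse the same 2 arrays and so are no further check, each such gene with a window held the core. The split was made with the differences known and was not tested.

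**Figure D4:**
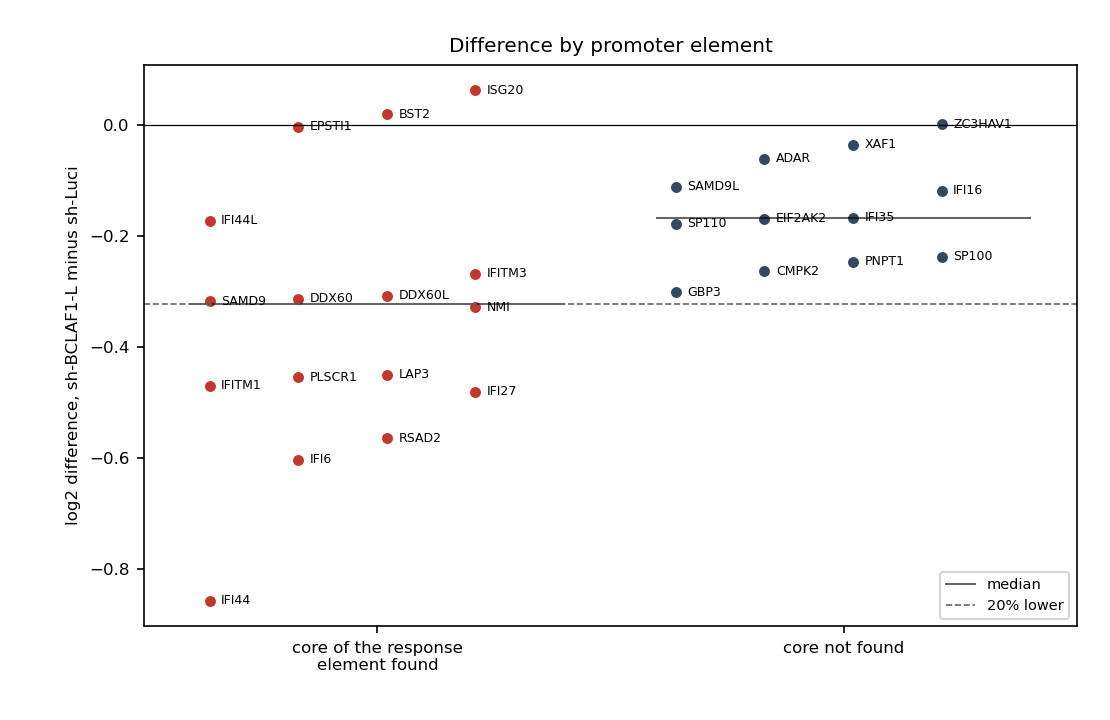
Log2 difference (sh-BCLAF1-L minus sh-Luci) of the 28 genes above the filter that have a promoter window, split by whether the window holds the core of the interferon-stimulated response element; lines are the medians, -0.32 with the core and -0.17 without, and the dashed line is 20% lower. The 8 points under the dashed line are all on the side with the core, and so are BST2 and ISG20 above 0.

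The most closely related groups had lower medians than these genes on the same 2 arrays. The median log2 difference was -0.49 over 4 IFIT genes, -0.56 over 6 OAS and MX genes and -0.52 over 5 genes of the ISG15 system, against -0.25 over the 31 genes. At least 20% lower were 2 of 4, 4 of 6 and 3 of 5 of those genes, against 9 of 31. These groups are small, their values overlap with those of the 31 genes, and the difference between groups was not tested.

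Few of the measured genes of the interferon signalling pathway differed by 20% on their brightest probe sets. Of 25 genes listed, 2 transcription factors were not analysed here, and 20 of the other 23 reached the filter. Of these 20, 11 were lower and 9 higher, with a median of -0.035, while 45% of all genes were lower. The receptors had a median of -0.11 over 6 genes, the kinases JAK1, JAK2 and TYK2 of 0.11, and the negative regulators of -0.035 over 6 genes. The dimmest probe set above the filter differed by -0.57 in JAK1 and by -0.49 in the receptor gene IFNAR1. The brighter ones differed by 0.11 to 0.14 in JAK1 and by -0.094 to -0.089 in IFNAR1. At least 20% lower was 1 of the 20 genes, against 2.21% of all genes. It was IRF9, the DNA-binding subunit of the complex that binds the response element. IRF9 read 407 in sh-BCLAF1-L cells and 555 in sh-Luci cells, a difference of -0.45. At least 25% higher was 1 gene, IFNL1, a type III interferon, which read 95.7 in sh-BCLAF1-L cells and 71.2 in sh-Luci cells. IFNG was also above the filter, at 293 in sh-BCLAF1-L cells and 339 in sh-Luci cells, a difference of -0.21. IFNB1, IFNE and IFNK were below the filter.

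**Figure D5:**
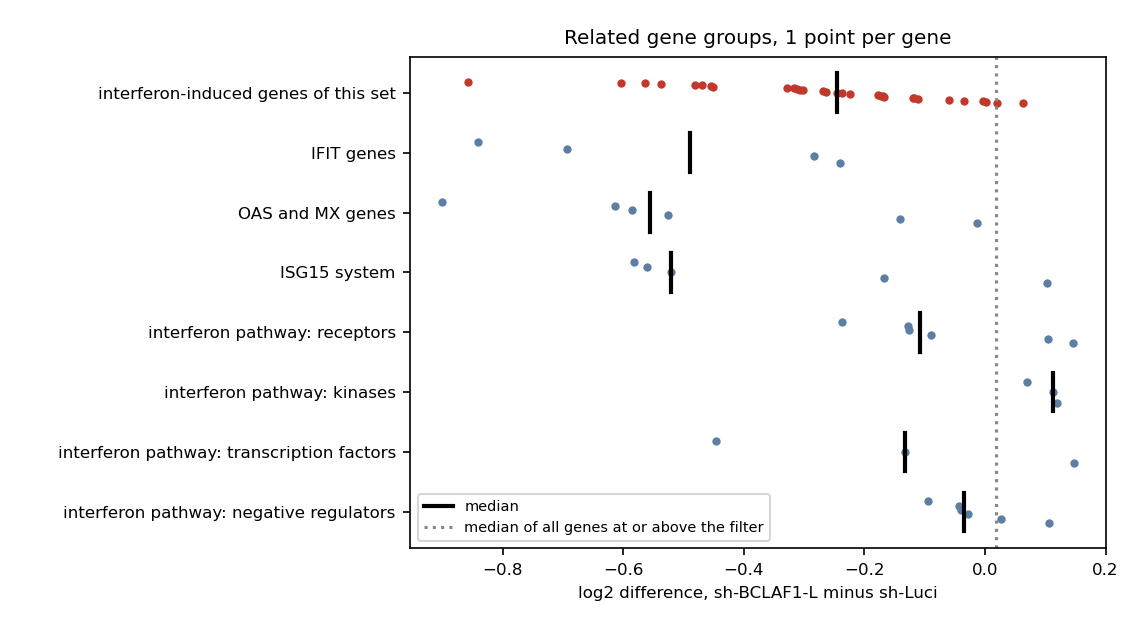
Log2 difference (sh-BCLAF1-L minus sh-Luci) of each gene above the filter in the 31 interferon-induced genes, in 3 related groups and in 4 classes of pathway genes, with the median of each group as a black bar and the median of all 14507 genes, 0.019, as a dotted line. The bars of the IFIT, OAS and MX, and ISG15 groups lie near -0.5, that of the 31 genes at -0.25, and those of the pathway classes between -0.13 and 0.11.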

How the data were processed

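The data are the deposited linear probe set intensities of 2 Affymetrix arrays, 1 per group; the submitters' processing notes name RMA, and its version and final scaling are not stated in the sources used here. Array medians were 84.5 (sh-BCLAF1-L) and 82.7 (sh-Luci), and the number of arrays limits the precision. Of 54675 probe sets, 41097 had 1 gene symbol in the platform annotation, 1801 several and 11777 none. Symbols were updated by Entrez identifier through RefSeq (GRCh38.p14), which held 41043 of them. Differences are log2(intensity + 1), sh-BCLAF1-L minus sh-Luci; folds understate changes of dim genes. Every one of the 35 genes is named, with BCLAF1 and pathway genes at least 20% lower or 25% higher. The genes, the lists and the thresholds were chosen with earlier results of these data known. Alternatives covered the choice of probe set, filter, pseudocount (32) and scaling (median, or lowess with span 0.3). The procedure was tested on simulated data. A planned comparison of protein sequences was not run. Python 3.11.15, pandas 2.3.3 and statsmodels 0.14.6 were used.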

Additional observations from a re-analysis of the deposited data

How the results depend on the processing

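No paired analysis was possible because there was a single array per group, and for the same reason leave-one-out fits were not made. The median over the genes above the filter stayed between -0.26 and -0.21 in all 9 settings, and none was 25% higher in any of them. The count at least 20% lower was 9 of 31, with 8 at a pseudocount of 32, 12 after subtraction of the median or of the lowess curve, 10 of 34 without a filter and 6 of 20 without _s_at and _x_at probe sets. At a threshold of 1.5-fold it was 2, and at 2-fold it was 0. Without _s_at and _x_at probe sets, 16 of 20 genes were lower, 1 was at least 1.5-fold lower and IFI44 turned to 0.0088. Without a filter 3 genes were at least 1.5-fold lower, the third being LGALS3BP. BCLAF1 differed by -1.41, by -1.14 with the median over probe sets, by -1.05 with the mean over those above the filter and by -0.51 without _s_at and _x_at probe sets. Of the 31 genes, 26 were below 0 in every setting that measured them, and BST2 and ISG20 in none. ZC3HAV1 was below 0 in 4 of 9 settings and EPSTI1 in 8 of 9.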
